A study of Danio rerio and Xenopus laevis and Xenopus tropicalis with 8 samples.

Results

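The genes described here are the zebrafish genes of fibroblast growth factor (FGF) signaling, chosen by symbol. Every gene whose symbol begins with fgf and a digit, fgfr, dusp and a digit, spry and a digit, spred and a digit, or etv and a digit was taken, which gave 79 Ensembl identifiers with 78 symbols out of 32520 annotated genes. The rule looked at names only and at no measured value. It took in 32 fgf genes, 9 receptor genes, 23 dual-specificity phosphatase genes, 3 sprouty genes, 4 spred genes and 6 ETS factor genes. The fgf genes are called ligand genes below, although some of them, such as fgf13b, stay inside the cell. Also taken were fgfr1op and fgfr1op2, which are named for fusion partners of the receptor FGFR1 and are not receptors. The dusp symbols also cover phosphatases with no known tie to FGF, such as dusp11, which acts on RNA ends.

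RNA of these genes was measured at the start and after the onset of zygotic transcription. Tomo-seq libraries were made from 3 untreated one-cell stage embryos of the AB wildtype strain, each frozen and cut into 96 sections along the animal-vegetal axis, with a barcode per section. A scSLAM-seq library was made from pooled AB wildtype embryos injected with 4sUTP, a uridine analog, after fertilization and dissociated at 6 h, at shield stage. In scSLAM-seq, RNA made after the injection carries T-to-C changes and is counted as labeled. Unlabeled RNA holds RNA from before the injection, such as maternal RNA, and any new RNA in which too few changes were detected. Both methods count unique molecular identifiers (UMIs) at the 3' end of polyadenylated RNA, 1 for each molecule captured, so that levels of different genes were compared without division by length.

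FGF ligands are secreted proteins that bind receptor tyrosine kinases and act through Ras and the kinase ERK. ERK signaling switches on ETS transcription factors, such as etv4 and etv5b, and inhibitors that feed back on the pathway, such as the ERK phosphatase dusp6 and the sprouty and spred proteins. In the zebrafish gastrula, FGF ligands are made at the margin of the blastoderm, where FGF signaling is needed for mesoderm and for the expression of tbxta and tbx16.

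The one-cell libraries held 8028937, 9885804 and 31167298 nuclear counts in embryos 1, 2 and 3, over 68, 70 and 74 sections that passed the depth limit. Mitochondrial RNA took 20.7% and 21.6% of the counts in embryos 1 and 2, but 1.71% in embryo 3, which also has a UMI of 4 nt in place of 6 nt. Embryo 3 therefore stands apart, and levels are given per embryo. The scSLAM-seq library gave 6847 cells, defined as barcodes with at least 150 labeled and 150 unlabeled genes, with a median of 2984 UMIs. Of all counts in these cells, 39.6% were labeled. There is 1 library at 6 h, so no test was possible there, and intervals cover counting error only.

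At the one-cell stage most RNA of the group was that of ETS factors, phosphatases and the receptor fgfr1a. RNA of the ligands and of the feedback inhibitors was low where it was measured on its own. Of the 79 genes, 59 had a row of their own in the one-cell tables and 58 were detected in at least 1 embryo, with 39, 43 and 57 in embryos 1, 2 and 3. Another 7 rows join one of these genes with a neighbor, such as spred2b, and were not used for it. Levels are CPM, that is, counts scaled to a common total of nuclear counts per embryo (counts-per-million). Mean levels reached at least 10 CPM for 11 genes, lay between 1 and 10 CPM for 11 and were under 1 CPM for 37.

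The highest level was that of etv5a, an ETS factor, with 473, 646 and 285 CPM in embryos 1, 2 and 3, a mean of 468 ± 181 CPM (SD, n = 3). This gene ranked first of the group in each embryo and made up 44.1% of their summed mean level. Its relative etv5b had 26.05, 39.6 and 95.4 CPM, and etv4 had 32.2, 7.18 and 8.67 CPM. For etv4, embryo 1 was high, and for etv5b, embryo 3.

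Among the receptors, fgfr1a had 48.6, 47.7 and 177 CPM in embryos 1, 2 and 3. The other receptors had far lower levels. The level of fgfr1b was 0.872, 1.11 and 0.869 CPM, that of fgfr4 0.125, 0.506 and 0.225 CPM, and that of fgfr2 0.249, 1.42 and 3.30 CPM, the last on 103 counts. Most maternal receptor RNA was thus fgfr1a in all 3 embryos.

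Of the phosphatases, dusp22a had 288, 81.6 and 19.5 CPM in embryos 1, 2 and 3, a spread larger than its mean of 130 CPM. The stress- and ERK-induced phosphatase dusp1 had 22.9, 63.04 and 165 CPM, and dusp11 had 31.7, 18.2 and 185 CPM. The 3 embryos do not agree on the order of these genes, as dusp22a came second in embryos 1 and 2 and dusp11 in embryo 3. The remaining genes among the 10 highest were fgfr1op2 with a mean of 36.6 CPM, fgfr1op with 29.4 CPM and dusp22b with 18.1 CPM.

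Of the dusp6, sprouty and spred inhibitors, which follow FGF signaling in the gastrula, most with a row of their own were nearly absent at the one-cell stage. For dusp6, 0, 0 and 14 counts were found in embryos 1, 2 and 3. The counts were 1, 1 and 10 for spry4, 5, 9 and 30 for spry2, and 1, 0 and 12 for spred2a. The exception among them was spred1, an inhibitor of Ras-to-Raf signaling, with 5.11, 6.07 and 3.91 CPM. No row of its own was present for spry1 or spred2b, so their one-cell levels are not known here. A count of 3 corresponds to 0.374, 0.303 and 0.0963 CPM in embryos 1, 2 and 3.

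None of the 21 fgf genes with a row exceeded a mean of 1.97 CPM. This was the level of fgf13b, a member of the FGF group that stays inside the cell. The other fgf genes with a mean above 1 CPM were fgf18b, fgf1b and fgf13a, a second fgf13 gene. The ligands known from the gastrula margin were at or below the level of a few counts. For fgf8a, 0, 0 and 1 counts were found, for fgf24 0, 0 and 5, for fgf17 1, 0 and 8, for fgf3 2, 0 and 1, for fgf4 0, 0 and 1, and for fgf8b 0, 1 and 3. In embryos 1 and 2, none of these ligands had more than 2 counts.

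**Figure D1:**
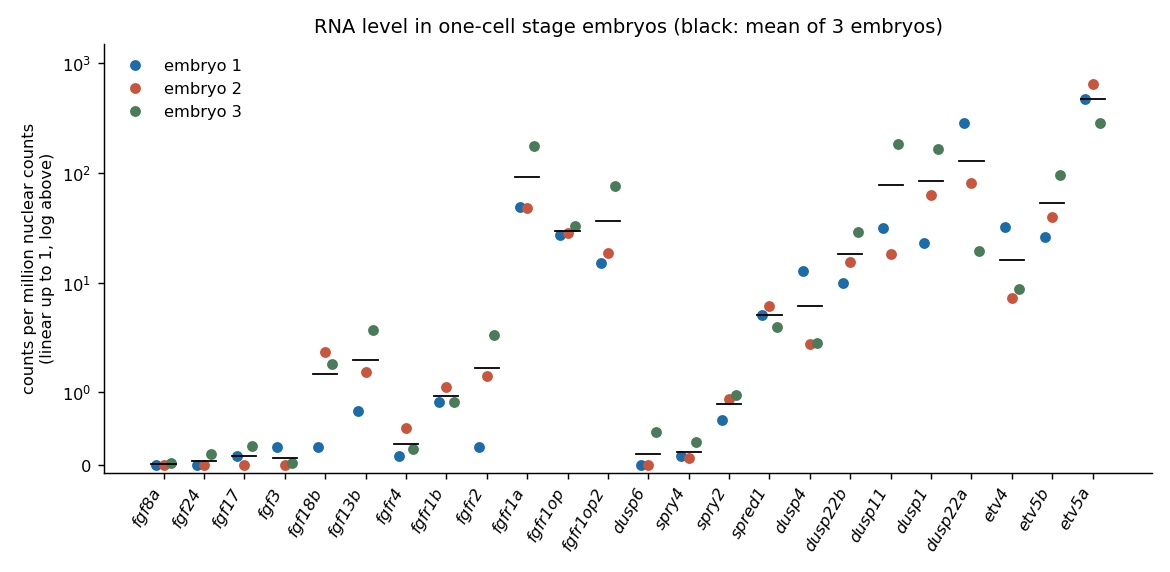
Level of 24 genes in the one-cell stage embryos, in CPM of nuclear counts, on an axis that is linear up to 1 and logarithmic above; points are embryos and black lines are means of 3 embryos. The ligands on the left lie near 0 or at a few CPM, and etv5a on the right lies between 285 and 646 CPM.

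Tomo-seq also shows where this RNA lay along the axis. Sections were divided into vegetal, middle and animal regions of equal section number, and the vegetal and animal regions of the 3 embryos were compared in edgeR with the embryo as a block, in CPM of each region total, over 11223 rows with a mean of at least 10 counts. Of the 22 genes tested, 6 were lower in the vegetal region at a Benjamini-Hochberg adjusted p below 0.05, and 0 were higher. This is 27.3% of them, against 25% of all rows tested that were lower in the vegetal region and 3.7% that were higher, so the share is near the background. At an unadjusted p under 0.05, 7 of the 22 genes passed in edgeR, or 31.8%, against 39.5% of all rows. The germ plasm gene dazl had a log2 fold change of 4.96, which checks the direction of the axis.

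The fold changes of all rows leaned the same way. The median log2 fold change over all rows was -0.31, and that over the 22 genes was -0.38. Of the 22 genes, 20 had a negative log2 fold change, and 16 lay below the median of all rows and 6 above it. With TMM factors, which center the fold changes, 8.74% of the rows were higher and 8.35% lower in the vegetal region, and 51.1% of the calls were vegetal in place of 12.9%. With DESeq2, 5.42% were higher and 3.58% lower, and 60.2% of the calls were vegetal. In these fits 3 and 2 of the 22 genes were called lower in the vegetal region, and 0 higher. DESeq2 gave no adjusted p for some of the 22 genes, which it could thus not call. Mitochondrial RNA is part of the region totals, and the median shift was -0.15 without it.

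The smallest adjusted p of the group was that of the receptor fgfr1a. It had 25.7, 22.6 and 110 CPM in the vegetal region of embryos 1, 2 and 3, against 45.6, 50.2 and 203 CPM in the animal region. The vegetal level was lower in 3 of 3 embryos, although the regions overlap across embryos, with embryo 3 high in both. The log2 fold change of vegetal over animal was -0.95 ± 0.15 (SE; edgeR quasi-likelihood test, adjusted p = 1.8e-06), and -0.64 relative to the median of all rows.

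The phosphatase dusp22a had 140, 43.99 and 9.86 CPM in the vegetal region, against 255, 79.7 and 22.6 CPM in the animal region. Its log2 fold change was -0.94 ± 0.15 (SE; edgeR, adjusted p = 2.1e-06), or -0.63 relative to the median, and again all 3 embryos were lower in the vegetal region. These 2 genes also passed with TMM factors, where fgfr1a had a log2 fold change of -0.67 and an edgeR adjusted p of 0.000212, and with DESeq2, where its adjusted p was 0.0166.

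The other calls rest on smaller differences or fewer counts. For dusp23a the log2 fold change was -1.33 ± 0.40 (SE; edgeR, adjusted p = 0.00842), with 0 counts in either region of embryo 1 and lower vegetal values in the other 2 embryos. For dusp4, a nuclear ERK phosphatase, it was -1.05 ± 0.41 (SE; edgeR, adjusted p = 0.0483), with only 13, 4 and 2 vegetal counts in embryos 1, 2 and 3. For dusp11 it was -0.50 ± 0.16 (SE; edgeR, adjusted p = 0.0132), and for etv5b -0.43 ± 0.16 (SE; edgeR, adjusted p = 0.0324). Relative to the median of all rows these values were -1.02 for dusp23a, -0.74 for dusp4, -0.20 for dusp11 and -0.13 for etv5b. With TMM factors, dusp4, dusp11 and etv5b no longer passed, at edgeR adjusted p of 0.211, 0.416 and 0.598, and dusp23a had 0.0496. DESeq2 gave no adjusted p for dusp23a, dusp4 and some uncalled genes, such as spred1 and fgfr2. Without embryo 3, which leaves fewer rows to test, 3 of 15 genes were called in place of 6 of 22. This is 20%, against 14.4% of all rows in that fit.

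The most abundant maternal gene of the group was not called. For etv5a the vegetal region had 311, 416 and 267 CPM, against 409, 573 and 282 CPM in the animal region, a log2 fold change of -0.31 ± 0.16 (SE; edgeR, adjusted p = 0.145), equal to the median of all rows. Without embryo 3 its log2 fold change was -0.43 and its edgeR adjusted p 0.0397. The only genes with a positive log2 fold change were dusp1 with 0.11 (edgeR, adjusted p = 0.648) and etv4 with 0.06 (edgeR, adjusted p = 0.876).

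**Figure D2:**
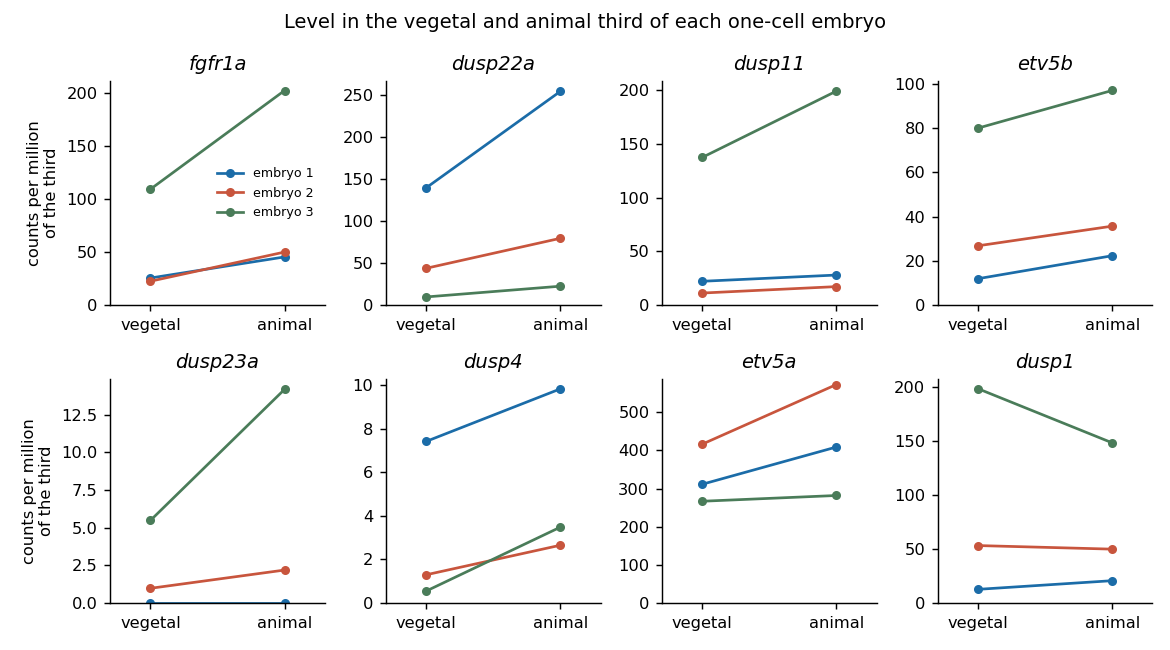
Level of 8 genes in vegetal and animal sections of the one-cell embryos, in CPM of the region total, with a line per embryo. The lines of fgfr1a, dusp22a, dusp11, etv5b and dusp4 run upward toward the animal region in 3 of 3 embryos, while those of dusp1 run in differing directions.

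Section profiles were compared at finer scale for the 8 genes with at least 100 counts in every embryo. The mean position, from 0% at the animal end to 100% at the vegetal end, was lowest for dusp22a with 44%, 42% and 38.5% in embryos 1, 2 and 3, and for fgfr1a with 44.1%, 41.6% and 41.4%. It was highest for dusp1 with 46.6%, 50.6% and 53.6%. The median over the 8 genes was 45.2% ± 0.813 (SD, n = 3 embryos). Counts were divided by section totals, which include mitochondrial RNA. The position was not computed for all rows, whose fold changes also leaned toward the animal region. Whether these genes differ in position from other genes was thus not tested. In the most vegetal of 10 equal bins of sections, fgfr1a had 28.4, 18.6 and 65.8 CPM, against 37.96, 46.5 and 209 CPM in the most animal bin.

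**Figure D3:**
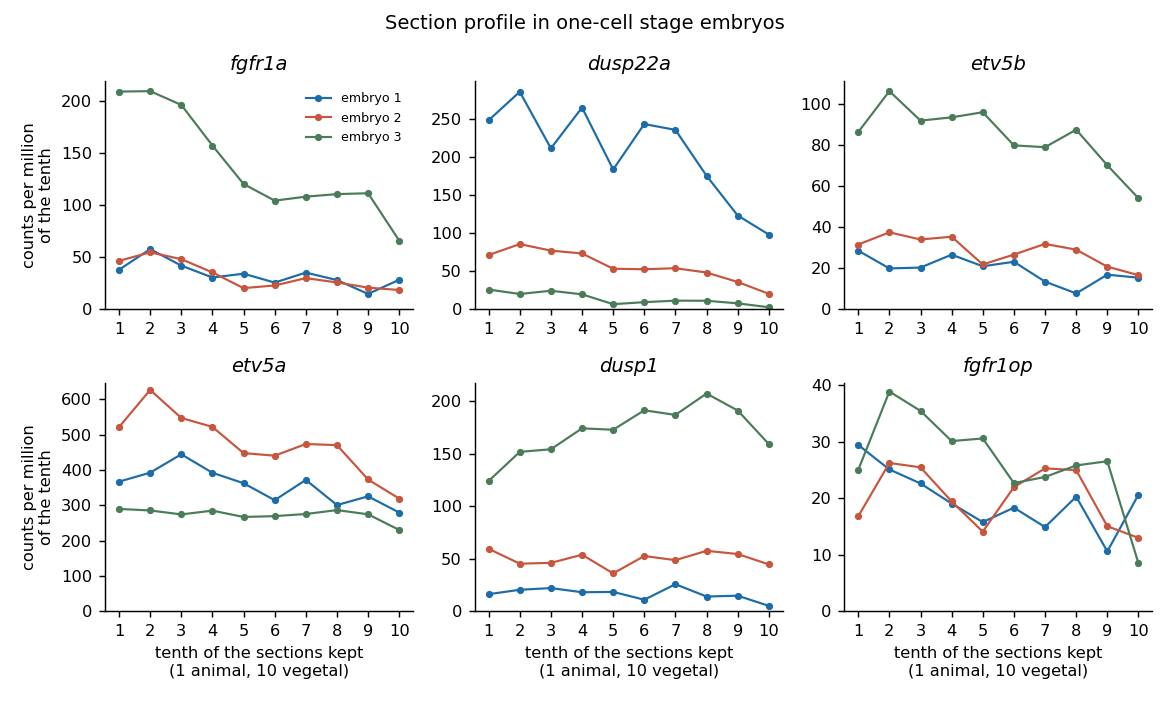
Level of 6 genes along the animal-vegetal axis in each one-cell embryo, in CPM of each of 10 equal bins of the sections kept, from animal (1) to vegetal (10). In embryo 3, fgfr1a lies at 65.8 CPM in the most vegetal bin, against 209 CPM in the most animal bin, and dusp1 at 159 CPM, against 124 CPM.

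Other genes of the pathway were also lower or uncalled in the vegetal region. In a list of 39 genes of FGF and Ras-ERK signaling, 27 were tested, of which 9 were lower in the vegetal region and 0 higher, or 33.3%, against 25% of all rows, with a median log2 fold change of -0.40. Among the 9, the ubiquitin ligase gene cbl had a log2 fold change of -0.89 (edgeR, adjusted p = 8.2e-05), and the FGF antagonist gene il17rd had -0.42 (edgeR, adjusted p = 0.0221). None of 7 targets at the margin, such as tbxta and tbx16, was among the rows tested with a row of its own.

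At 6 h, 58 of the 79 genes had at least 1 UMI in cells, and 19 had at least 100. The 58 genes together had 12482 UMIs, of which 75.4% were labeled. Of the 19 genes, 13 had a labeled share of at least 75%, or 68.4%, whereas 24.6% of the 7405 genes with as many UMIs reached this share. The median labeled share was 82.5% over the 19 genes and 48.4% over all 7405. At the other end, 2 of the 19 genes had a share of at most 25%, against 28.5% of all genes. The limit of 100 counts labeled and unlabeled UMIs together, so a gene with little unlabeled RNA passes it only if highly labeled. Of the 13 genes, only etv5b, fgfr1op2 and etv4 had over 100 unlabeled UMIs, with 437, 329 and 219. The others passed the limit only with their labeled UMIs. The part of this in the difference from all genes was not tested.

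RNA of the margin ligands was mostly labeled at 6 h. Of the UMIs of fgf17, 92.2% were labeled (106 of 115, exact 95% interval 85.7% to 96.4%), of fgf8a 91.7% (266 of 290, 87.9% to 94.6%) and of fgf24 87.8% (137 of 156, 81.6% to 92.5%). With fewer UMIs, fgf3 had 33 labeled of 35 and fgf4 24 labeled of 26. No UMI of fgf8b was found in cells. The first 3 of these ligands had at most 8 counts in any one-cell embryo, as given above.

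Receptors differed in their labeled share. The receptor fgfr1b, at about 1 CPM in the egg, had 607 UMIs at 6 h with a labeled share of 94.9% (92.8% to 96.5%), the highest of the 19 genes, and fgfr4 had 796 UMIs with 88.2% (85.7% to 90.4%). In contrast, fgfr1a, the receptor with abundant maternal RNA, had 512 UMIs with 62.7% labeled (58.3% to 66.9%). Only 9 UMIs of fgfr2 and 2 of fgfr3 were found.

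Among the ETS factors, shares also differed. At 6 h etv5b was the most abundant gene of the group with 2495 UMIs, or 1.16 per 10000 counts, and 82.5% of them were labeled (80.9% to 83.96%). For etv4, 84.9% of 1451 UMIs were labeled (82.96% to 86.7%). The most abundant gene of the egg, etv5a, had only 354 UMIs, of which 59.3% were labeled (54% to 64.5%).

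Of the feedback inhibitors, spry2 had a labeled share of 86.1% (481 UMIs), spred2a of 85.6% (153 UMIs) and spry4 of 83.3% (144 UMIs). The share of dusp6 was lower, at 74.5% of 984 UMIs (71.6% to 77.2%), while its mean level in the egg was 0.150 CPM. Its 251 unlabeled UMIs correspond to 11.7 CPM at 6 h. For spry2, with a mean of 0.833 CPM in the egg, the unlabeled level at 6 h was 3.12 CPM. The 2 methods differ in annotation and depth, so these levels are only set side by side. In the remaining genes of this role, spred1 had 74 UMIs, spred2b 61, spry1 10 and spred3 1.

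The lowest labeled shares were those of phosphatases. For dusp23a, 5.85% of 410 UMIs were labeled (3.79% to 8.58%), and for dusp22a, 6.67% of 150 (3.24% to 11.92%). With dusp11, at 50.9% of 597 UMIs, these were the lowest shares of the 19 genes. The levels in the egg do not order in the same way, as dusp22a was among the highest genes at the one-cell stage, while dusp23a had 0.249, 2.02 and 12.4 CPM in embryos 1, 2 and 3. In contrast, dusp1, fgfr1op2 and fgfr1op had shares of 76.7%, 79.04% and 76.3%.

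**Figure D4:**
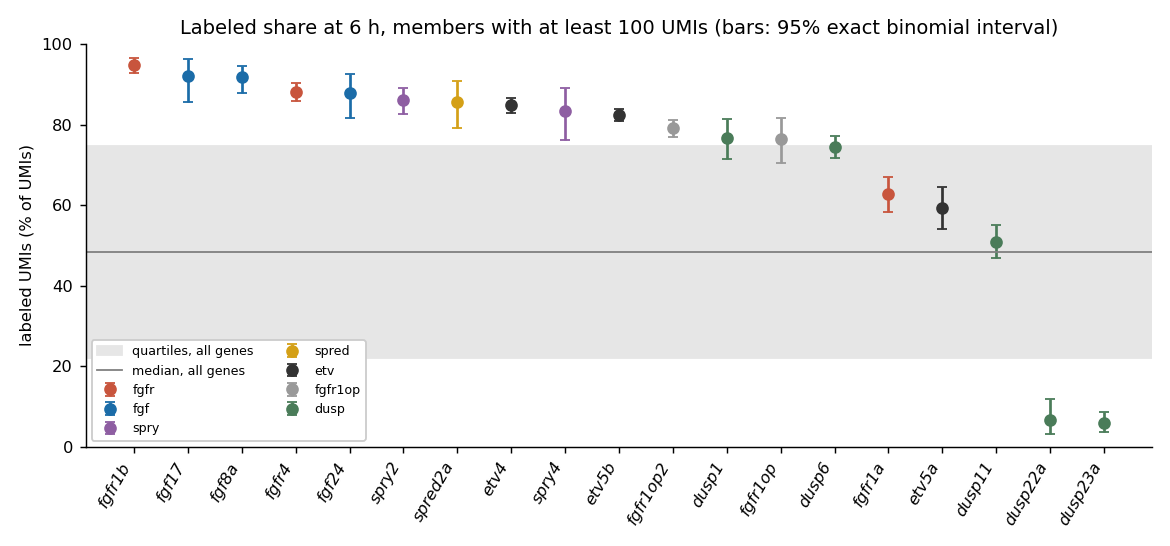
Labeled share at 6 h of the 19 genes with at least 100 UMIs, in percent of their UMIs, with exact 95% binomial intervals; the gray band and line are the quartiles and the median of all 7405 genes with as many UMIs. Of the 19 genes, 13 lie at 75% or above, and dusp22a and dusp23a lie at 6.67% and 5.85%.

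In the list of 39 other pathway genes, 18 had at least 100 UMIs. Only flrt3, known in frog embryos as a membrane protein gene induced by FGF, had a labeled share of at least 75%, with 90.4% of 823 UMIs. Of all genes, 24.6% reached this share. Some of the 18 lay just under the limit, such as il17rd with 72.9% of 495 UMIs. The median share of the 18 was 38.2%, and 6 of them had at most 25%, where 28.5% of all genes did, so this count is near the background. Among the 6 were mapk3, which encodes ERK1, with 11.6% of 998 UMIs and the phosphatase ptpn11a with 9.59% of 1971 UMIs. All 5 of the 7 margin targets with enough UMIs were mostly labeled, for example tbxta with 91.8% of 3931 UMIs and tbx16 with 88.02% of 5628 UMIs.

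To see in which cells the new RNA lay, cells were clustered on labeled RNA without the 79 genes. Of 13 clusters, 8 were named from marker lists and held 3714 cells, and 5 clusters with 3133 cells stayed unnamed. The named classes are ventral mesoderm-like (547 cells), an axial mesoderm-like class led by noto (570 cells, called noto axial below), an axial mesoderm-like class with frzb and gsc among its leading genes (132 cells, called frzb axial), non-axial mesoderm-like (758 cells), endoderm-like (191 cells), enveloping layer-like (135 cells), neuroectoderm-like (1321 cells) and PGC-like (60 cells), where PGC stands for primordial germ cell. No enveloping layer marker was among the 10 leading genes of its class, although all 11 were raised there. In the neuroectoderm-like class, 6 of 10 neuroectoderm markers were raised, but also 4 of 7 non-neural ectoderm markers. Its summed level of neuroectoderm markers was 9.69 per 10000 counts, against 9.62 in an unnamed cluster of 687 cells. No class took the non-neural ectoderm name here, whereas clusters of 481 and 356 cells did at resolution 2. Values of the neuroectoderm-like class may thus cover both kinds of ectoderm. The ventral mesoderm-like class was led by her12, dld and cdx4, and tbxta was among its leading genes. Levels below are labeled UMIs of a class per 10000 counts of the class, with exact 95% Poisson intervals.

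Of the 19 genes, 10 reached a level at least 2 times that of all other cells in a named class with at least 10 labeled UMIs, or 52.6%, against 17.6% of all genes with at least 100 UMIs. They were the 3 ligands, spry2, spry4, dusp6, spred2a, etv5a, dusp1 and fgfr1a. The 17.6% is over genes with as many UMIs in all, not as many labeled UMIs. The median labeled share was 82.5% over the 19 genes and 48.4% over all genes, and a low share leaves fewer labeled UMIs to reach the limit of 10. The part of this in the difference was not tested. The cell classes come from a single library, and the other genes served to define the classes, so this is a description.

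The ligands differed in the classes in which they were highest. The level of fgf17 was 0.462 (0.282 to 0.714) in frzb axial cells and 0.201 (0.149 to 0.265) in non-axial mesoderm-like cells, which is 11.3 and 6.79 times the level in all other cells. These classes held 20 and 50 of its 106 labeled UMIs. In contrast, fgf24 was highest in ventral mesoderm-like cells with 0.233 (0.170 to 0.312), 4.95 times the other cells, followed by noto axial cells with 0.123 (0.0789 to 0.183). No labeled fgf24 UMI was found in the frzb axial class, with an interval up to 0.0853 per 10000 counts. The frzb axial and ventral mesoderm-like classes were thus opposite in fgf17 and fgf24, and the intervals did not overlap for either gene.

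The highest level of fgf8a was in enveloping layer-like cells, with 0.651 (0.478 to 0.865), 6.16 times the other cells. The 47 labeled UMIs there came from 27 of 135 cells, with at most 5 in a cell. Noto axial cells followed with 0.339 (0.262 to 0.431) and non-axial mesoderm-like cells with 0.237 (0.180 to 0.305), and neuroectoderm-like cells had 0.0171 (0.00689 to 0.0353). In the enveloping layer-like class the summed level of the 9 non-axial mesoderm markers was 4.22 per 10000 counts and that of the axial mesoderm list 0.734, against 24.7 and 16.9 in the non-axial and noto axial classes that bear these names. The list of 8 ventral mesoderm markers had 15.4 in enveloping layer-like cells and 37.8 in ventral mesoderm-like cells. In neuroectoderm-like cells the non-axial, axial and ventral lists had 3.06, 0.876 and 15.1, near the values of the enveloping layer-like class. The part of any mesoderm cells in the fgf8a level of the enveloping layer-like class was not tested. The fold of fgf8a ranged from 5.33 to 7.93 over the alternatives run. Where several clusters took the enveloping layer name, only the highest fold entered this range. At resolution 0.6, for example, clusters of 369 and 135 cells took the name.

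For the ligands with few UMIs, 16 of 33 labeled UMIs of fgf3 and 13 of 24 of fgf4 lay in non-axial mesoderm-like cells. Endoderm-like cells held 7 labeled UMIs of fgf3, and frzb axial cells 5 of fgf4. Neuroectoderm-like cells, the largest named class, held 0 of either.

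The sprouty genes and dusp6 were highest in ventral mesoderm-like cells and next in noto axial cells, apart from dusp6, for which endoderm-like cells came second with an interval overlapping that of noto axial cells. For spry2, ventral mesoderm-like cells had 0.513 (0.417 to 0.625) and noto axial cells 0.370 (0.289 to 0.465), which is 3.18 and 2.11 times the other cells. For spry4, they had 0.140 (0.0922 to 0.204) and 0.118 (0.0748 to 0.177). For dusp6, ventral mesoderm-like cells had 0.643 (0.535 to 0.766), 2.06 times the other cells, endoderm-like cells 0.441 (0.293 to 0.638) and noto axial cells 0.411 (0.326 to 0.511). The fold of dusp6 was 1.90 per 10000 labeled counts, 1.88 at resolution 0.6 and 1.94 without cells of high UMI count, all under the limit of 2.

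The frzb axial class had low RNA of the dusp6, sprouty and spred inhibitors beside high ligand RNA. Only 1 labeled UMI of dusp6 was found in its 132 cells, a level of 0.0231 (0.00059 to 0.129), against 80 UMIs in noto axial cells. Summed over 8 such inhibitors, it had 0.278 (0.143 to 0.485), against 1.39 (1.23 to 1.57) in ventral mesoderm-like and 1.02 (0.885 to 1.17) in noto axial cells. Summed over fgf3, fgf4, fgf8a, fgf17 and fgf24, it had 0.809 (0.564 to 1.13), against 0.451 (0.361 to 0.556) and 0.549 (0.450 to 0.664) in these classes, where its interval overlaps that of noto axial cells. The enveloping layer-like class had the same combination, with 0.761 (0.574 to 0.991) for the ligands and 0.277 (0.169 to 0.428) for the inhibitors. High ligand RNA was not limited to these classes. Non-axial mesoderm-like cells had 0.662 (0.565 to 0.771), overlapping both, beside 0.766 (0.662 to 0.883) for the inhibitors. In frzb axial cells, 20 of the 35 labeled ligand UMIs were those of fgf17.

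The ETS factors were expressed widely. The level of etv5b was 1.51 (1.35 to 1.70) in noto axial, 1.27 (1.12 to 1.44) in ventral mesoderm-like and 1.12 (1.02 to 1.23) in neuroectoderm-like cells, and no named class reached 2 times the others. For etv4, ventral mesoderm-like cells had 0.850 (0.725 to 0.991) and noto axial cells 0.842 (0.718 to 0.981), while enveloping layer-like cells had 0.0554 (0.0151 to 0.142) and frzb axial cells 0.208 (0.0952 to 0.395). New etv5a RNA was highest in ventral mesoderm-like cells with 0.197 (0.139 to 0.270), 2.24 times the other cells. Neuroectoderm-like cells had an etv4 level of 0.639 (0.564 to 0.721) beside little ligand RNA, 0.0367 (0.0206 to 0.0606) over the 5 ligands.

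The receptors had other class patterns. The level of fgfr4 was 0.475 (0.410 to 0.547) in neuroectoderm-like and 0.486 (0.301 to 0.742) in frzb axial cells, whereas the ventral mesoderm-like class had only 3 labeled UMIs, 0.0155 (0.00321 to 0.0454). This class was among the highest in inhibitors and ETS factors. The level of fgfr1b varied less, from 0.116 (0.0376 to 0.270) in frzb axial to 0.297 (0.233 to 0.373) in non-axial mesoderm-like cells, apart from enveloping layer-like cells with 2 UMIs and PGC-like cells with 0. For fgfr1a, frzb axial cells had 0.301 (0.160 to 0.514) and endoderm-like cells 0.284 (0.168 to 0.448), and only 1 labeled UMI was found in enveloping layer-like cells. At clustering resolutions of 0.6 and 2, fgfr1a reached 2 times the other cells in no named class.

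Of the other genes, spred2a was highest in endoderm-like cells with 0.221 (0.121 to 0.370), 3.93 times the other cells, on 14 labeled UMIs. At resolution 0.6 this value was 1.24 times. The cluster named endoderm there held 1068 cells, with 7 of 7 non-axial mesoderm and 5 of 7 endoderm markers raised, so it is not the same class. The level of dusp1 was 0.254 (0.127 to 0.455) in frzb axial and 0.205 (0.109 to 0.350) in endoderm-like cells. For fgfr1op2, all 8 named classes lay between 0.416 and 0.612, and their intervals all overlapped. Per 10000 labeled counts, however, fgfr1op2 in PGC-like cells, of whose counts 17.9% were labeled, was at 2.16 times the other cells on 19 UMIs.

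Outside the group, the antagonist gene il17rd was at 2.61 times the other cells in ventral mesoderm-like, 2.38 times in non-axial mesoderm-like and 2.11 times in frzb axial cells. Its level in frzb axial cells, 0.347 (0.194 to 0.572), was thus not low as for dusp6. The level of flrt3 was 8.01 times the other cells in endoderm-like, 5.62 times in non-axial mesoderm-like and 2.47 times in frzb axial cells. For cnpy1, known in zebrafish as a regulator of FGF signaling, enveloping layer-like cells had 1.63 (1.35 to 1.96), 7.99 times the other cells, and PGC-like cells 1.39 (1.02 to 1.85), 5.93 times.

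**Figure D5:**
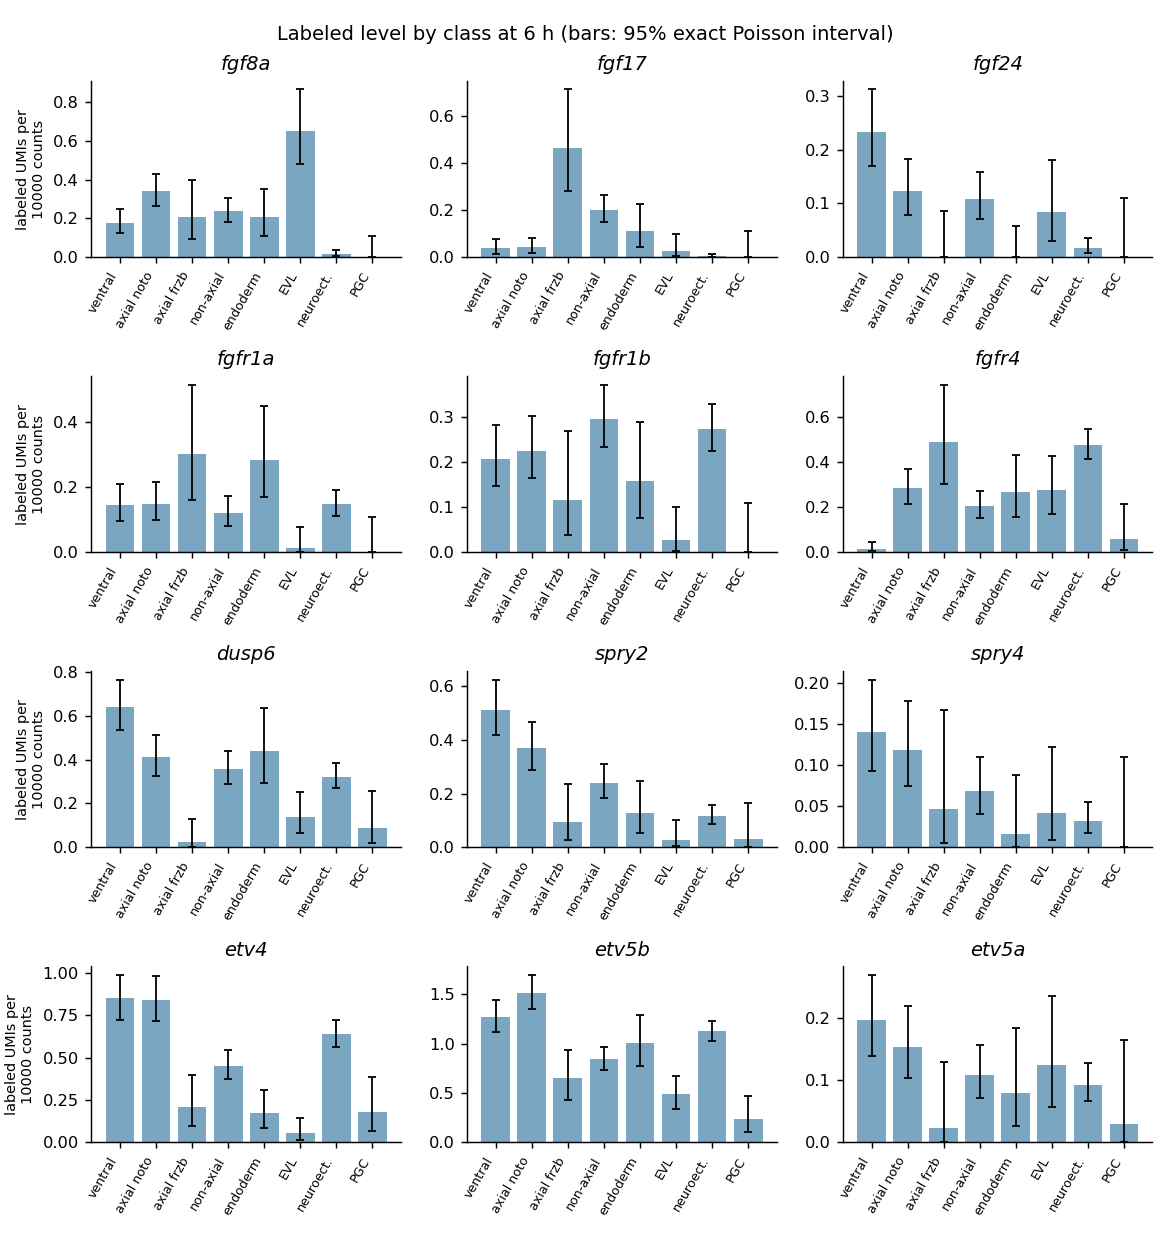
Labeled level of 12 genes in the 8 named classes at 6 h, in labeled UMIs per 10000 counts of the class, with exact 95% Poisson intervals; EVL stands for enveloping layer-like. Bars of fgf17 and fgf24 peak in the frzb axial and the ventral class, spry2, spry4 and dusp6 peak in the ventral class, and fgfr4 is at 0.0155 there.

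Unlabeled RNA was counted by class as well. PGC-like cells made up 0.876% of the cells and 2.14% of the unlabeled counts, but held 37 of the 144 unlabeled UMIs of etv5a, or 25.7%. Their unlabeled level of etv5a was 1.09 (0.770 to 1.51) per 10000 counts, against 0.0507 in all other cells, or 21.6 times. Of all genes with at least 100 UMIs, 1.92% had a fold as large in these cells. For dusp22a the unlabeled level was 0.502 (0.293 to 0.804), 8.63 times the other cells, and for fgfr1a it was also 0.502 with 17 of 191 UMIs, 6.10 times. Folds as large were more common for these, with 10.3% of all genes at or above that of dusp22a and 16.3% at or above that of fgfr1a.

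Of the 19 genes, 4 were at least 2 times higher unlabeled in PGC-like cells with at least 10 unlabeled UMIs there. This is 21.1%, against 29.1% of all genes, so the share is near the background. The fourth was etv5b at 2.22 times, which per 10000 unlabeled counts was 1.62 times and so under the limit, while etv5a, dusp22a and fgfr1a were at 15.8, 6.31 and 4.46 times on that scale. The median fold was 0.864 over the 19 genes and 1.78 over all genes. With 9 unlabeled UMIs in all cells, fgf17 could not reach the limit of 10, and fgf24 with 19 and spred2a with 22 had little room to. Of all counts of PGC-like cells 82.1% were unlabeled, against 60.05% in the other cells. Of the 60 PGC-like cells, 16 had 2 or fewer of the 8 PGC markers, and 19 had at least 5. The library held 38 cells with at least 5 of these markers, so the rest of them were counted among the other cells. In the 38 cells, the fold was 11.3 for etv5a, 8.09 for dusp22a and 4.37 for fgfr1a. The fold of etv5a was 9.35 and 24.3 where the PGC-like cluster held 15 and 53 cells, but 2.85 and 3.70 where clustering gave PGC-like clusters of 815 and 867 cells.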

How the data were processed

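The authors mapped tomo-seq reads with STAR 2.5.3a to GRCz10 and deposited expected counts per gene and section, which are UMI counts corrected for molecules that drew the same UMI. The deposited table of embryo 2, of another layout, holds expected counts of the same kind. For scSLAM-seq the authors mapped reads with Cell Ranger 3.0.2 to GRCz11, called UMIs with more than 1 T-to-C change at base quality over 20 labeled, mapped each set with STARsolo 2.7.0f and deposited whole-number counts of labeled and unlabeled UMIs. Symbols were matched by Ensembl identifier. The members and lists were chosen with earlier results of these data known.

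Sections below 10% of the median depth were dropped, spike-ins were left out and expected counts were rounded. Regions were tested in edgeR 4.0.16 (glmQLFit, glmQLFTest) with region totals as library sizes and Benjamini-Hochberg adjustment over all rows. Both regions of an embryo come from the same specimen, and their deviations from the group means correlated at 0.858, 0.781 and 0.916, so the embryo was a block. The fit was also run on simulated counts with a fixed dispersion and no differences between embryos other than depth. That run did not test the use of the block. Whether the 3 embryos share a clutch is not given in the sources used here, so p-values refer to these embryos only. With the embryo as a block, they leave out differences in level between embryos. The variation against which edgeR set the vegetal-animal difference was estimated with information shared over all rows. For a given gene, it is thus not only that gene's own variation between the 3 embryos. Each edgeR SE is the absolute log2 fold change over the square root of the F statistic. It rests on the same shared variation.

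Cells were clustered in scanpy 1.11.5 and leidenalg 0.10.2 on labeled RNA (2000 variable genes, scaled, 30 components, 20 neighbors, resolution 1). A cluster took the name of the list with the largest share of raised markers (log2 ratio of at least 0.5, at least 3 markers), where most of the list was raised and no other list had more markers among the 10 leading genes. Scaling and these limits were set after seeing the data. Scrublet marked 1 cell, 0.0146%, and had thus not worked, so no doublets were removed. Its planned use as an alternative was replaced by leaving out 304 cells of over 2 times the median UMIs. Named genes were all that passed the test, the highest levels, the highest and lowest labeled shares, those past 2-fold in a class, and a fixed set of ligands, receptors and feedback genes. Outside this rule, fgf1b, fgf13a, fgf13b, fgf18b, dusp2, dusp5 and dusp7 were named after their values were seen. Joined entries, sequences and the frog samples were not used here. Alternatives covered scaling, filters, the block, leaving out an embryo, section choice, UMI limits and clustering. The result of 1 gene of the pathway list is not reported here.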

Additional observations from a re-analysis of the deposited data

Results flagged for a closer look

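Barcodes of at most 10 UMIs were not used as cells. Over 332890 such barcodes with 590299 counts, dusp5 had 12 UMIs and dusp2 had 12, against 9 and 4 UMIs in the cells. Their levels outside cells were both 0.203 per 10000 counts, against 0.0042 for dusp5 and 0.0019 for dusp2 in cells, and the counting intervals did not overlap. For dusp7, 6 UMIs outside cells gave 0.102 per 10000 counts, against 0.0126 from 27 UMIs in cells. These 3 genes were flagged because their level was higher in barcodes outside the cells than in cells beyond counting error. More than 3 UMIs outside cells were also asked for. Only the 79 genes were examined in this way, so the share of all genes that would be flagged is not known. In contrast, etv5b and etv4 had levels of 0.966 and 0.593 outside cells, against 1.16 and 0.676 in cells.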

How the results depend on the processing

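The count of 6 of 22 genes lower in the vegetal region (27.3%, against 25% of all rows) changed with the setting. It was 3 with TMM factors (13.6%, against 8.35%) and 2 with DESeq2 (9.09%, against 3.58%). The DESeq2 shares are over all genes and rows, including those without an adjusted p. On observed UMI counts it was 2 (9.09%, against 11.3%), and with mitochondrial genes out of the library sizes 3 (13.6%, against 10.7%). With no replicate block it was 0, where 0 of all rows passed and 127 had an unadjusted edgeR p under 0.05. Without embryo 1 it was 5 of 23 (21.7%, against 17.7%), and without embryo 2 it was 4 of 23 (17.4%, against 18.5%). Without embryo 3 it was 3 of 15 (20%, against 14.4%). It was 5 of 54 genes tested without the filter (9.26%, against 12% of all rows), 5 of 13 with a mean of at least 50 counts (38.5%, against 31.8%), 6 of 19 with all sections (31.6%, against 27.3%) and 8 of 17 with the outermost of 5 regions (47.1%, against 33.4%). In none of these settings was a gene of the group called as vegetal. The calls of fgfr1a and dusp22a were lost only with no replicate block. The summed one-cell level was 1063 CPM, 913 CPM with mitochondrial genes in the total, and from 1012 to 1089 CPM without an embryo. The median position ranged from 45% to 45.7% without an embryo. The 13 genes at 75% labeled were 13 or 14 in the other settings on these genes, where 24.3% to 25.8% of all genes reached this share. With at least 20 UMIs they were 18 of 31, against 24.7% of 11269 genes. Those at 25% or less were 4 when genes with at least 20 UMIs were let in and 1 in cells of the named classes only, which leaves fewer genes. The 10 genes past 2 times in a class were 7 at resolution 0.6 and 9 or 10 otherwise. For these last 2 counts, the share of all genes was computed in the main setting only, at 28.5% and 17.6%. The settings of named classes, of high-UMI cells, of PGC markers per cell and of the low-depth cluster were chosen after seeing the data. The cause of these changes was not tested.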

Other observations

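Over fgf3, fgf4, fgf8a, fgf17 and fgf24, the labeled level per 10000 counts in the 5 unnamed clusters was lowest in the largest, of 1741 cells, with 0.0640 (0.0453 to 0.0879), and highest in a cluster of 143 cells, with 0.211 (0.0965 to 0.401). The level over all cells was 0.264 (0.242 to 0.286), within the interval of the cluster of 143 cells. At the one-cell stage the summed level of etv4, etv5a and etv5b was 531, 693 and 389 CPM in embryos 1, 2 and 3, while that of the receptors was 49.9, 50.98 and 181 CPM. In embryo 3 the receptor sum was the highest and the ETS factor sum the lowest of the 3 embryos.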
